A study of Mus musculus with 6 samples.

Results

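The adipocyte genes are 10 genes known for their expression in fat cells: Adipoq, Cfd, Retn, Lep, Plin1, Cidec, Fabp4, Lipe, Pparg and Ucp1. A probe was counted as a member when the array design assigned it to a RefSeq transcript of one of these genes. All 10 genes were found, with 12 probes on 30 spots of each array, out of 36983 genes and transcripts measured. Their RNA was read on 6 arrays, 2 for each of 3 groups. B10_tap came from C57BL/10 mice given tap water, MDX_tap from MDX mice given tap water, and MDX_JJ101 from MDX mice given JJ101, a bioceramic water; the labels state 10 months for each. MDX mice carry a mutation that leaves their muscle without working dystrophin, and the strain is used as a model of muscular dystrophy. The labels name the tissue as gastrocnemius, a calf muscle, and do not say whether the 2 replicates of a group came from separate mice, so the p-values may measure technical spread alone.

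Fat cells store triglyceride in a lipid droplet and release it as fatty acids when energy is needed. Proteins such as perilipin coat the droplet, lipases open its contents, and the nuclear receptor PPAR gamma switches on most of the genes that define the cell. Fat cells also secrete hormones, the adipokines, which include adiponectin, leptin and, in mice, resistin. In skeletal muscle, fat cells lie between the fibres and arise from progenitor cells that carry the receptor Pdgfra.

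Levels are log2 signals relative to the 75th percentile of the array, and a difference is the first group's mean minus the second's on that log2 scale. A spot counts as above background when the scanner software called it well above the local background. On the 6 arrays, between 42.5% and 51.6% of the spots were above background, with the lowest shares on the MDX_JJ101 arrays. The lowest level called above background was -4.23 to -3.90 on the tap water arrays and -3.33 and -3.29 on the MDX_JJ101 arrays, so dim genes were lost earlier there. Replicates correlated at 0.989 to 0.995. All arrays shared 1 slide, with MDX_JJ101 in a row of its own, so the effects of slide row and of JJ101 cannot be told apart; nor can those of slide column and of genotype between the tap water groups. Heart transcripts were abundant on every array: Myh6, the main myosin of the adult mouse heart, had levels of 10.17 to 10.45. Of 10 limb muscle genes, Mylpf, Myf5 and Myod1 did not enter the fit. Of the other 7, 6 or 7 were above background on each tap water array, and 1 and 0 on the MDX_JJ101 arrays. The summed signal of those 7, with the array's 75th percentile as 1, was 3.15 to 18.2 on the tap water arrays. That of 9 heart markers was 4508 to 4986 on the same arrays. Limb muscle transcripts were thus faint beside heart transcripts on the tap water arrays, and mostly missing on the MDX_JJ101 arrays. The heart markers Gata4, Nkx2-5 and Tbx5 were also above background on every array. These markers go against the gastrocnemius label, and no other check of the tissue was made.

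Adiponectin, adipsin, resistin and Cidec transcripts were lower in MDX_JJ101 than in MDX_tap, Fabp4 was lower by a smaller step, and the lipase gene Lipe was higher. Pparg passed in no comparison as fitted here. The defining fat cell genes were dim in these samples: Lep was above background on no array, Plin1 on 1 and Adipoq on 4. In bulk RNA, fewer fat cells and less RNA of these genes per cell cannot be told apart.

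**Figure D1:**
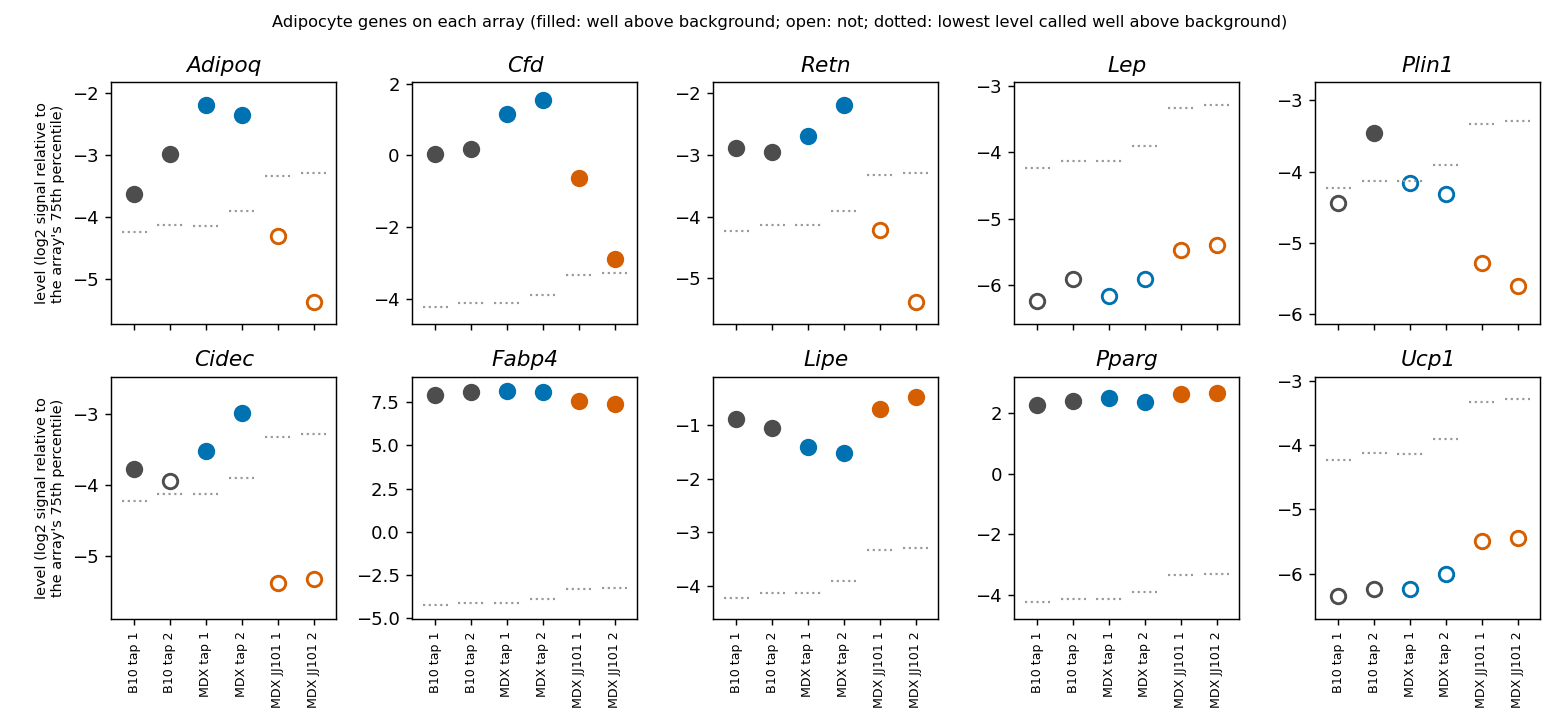
Level of each adipocyte gene on each of the 6 arrays (log2 signal relative to the array's 75th percentile), 1 point per array, for the probe of the gene with the highest mean. Filled points were above background, open points were not, and the dotted lines give the lowest level called above background on that array; Adipoq, Retn and Cidec are filled in the tap water groups and open on both MDX_JJ101 arrays, apart from an open Cidec point in B10_tap.

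Members were tested in 1 limma fit over the 20870 genes and transcripts for which some group had both arrays above background, with Benjamini-Hochberg adjustment over all of them and a threshold of 0.05. The fit held 7 of the 10 members. Adipoq and Retn entered it through the tap water groups and Cidec through MDX_tap alone, so for these 3 a low level in MDX_JJ101 is in part what the filter selects. Lep, Ucp1 and Plin1 did not enter and are given by their values.

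Between MDX_tap and B10_tap, 0 of the 7 members passed, where 5 of all genes did (0.024%) and 4383 had an unadjusted p under 0.05. Between MDX_JJ101 and MDX_tap, 6 of the 7 passed, 5 lower and 1 higher, where 36.1% of all genes passed, 16.1% lower and 19.9% higher. Between MDX_JJ101 and B10_tap, 4 of the 7 passed, all 4 lower, where 33.6% of all genes passed, 17.4% lower and 16.2% higher. The comparisons share arrays, so their values are set side by side and not counted as separate evidence. The calls in MDX_JJ101 against MDX_tap needed both MDX_tap arrays, while the differences kept their size: without MDX_tap replicate 1 Cidec alone passed, and without MDX_tap replicate 2 no member did, at adjusted p between 0.0519 for Cidec and 0.475 for Pparg. The difference of Adipoq was -2.48 and -2.65 in these fits, against -2.57 with all arrays, and that of Lipe 0.94 and 0.82, against 0.88. MDX_tap and MDX_JJ101 both sat in slide columns 3 and 4, so slide column as a block could not change their differences. These stayed at -2.57 for Adipoq, -3.11 for Cfd and -2.09 for Cidec. In that fit no member passed, nor did any of the 20870 genes (smallest limma adjusted p 0.0578, with 8858 at an unadjusted p under 0.05). The block leaves fewer residual degrees of freedom than the 3 of the reported fit, so the lost calls do not measure slide column. The calls in MDX_JJ101 against B10_tap likewise fell to 0 without either B10_tap array. An exact two-sided permutation of 2 arrays against 2 cannot give a p below 0.333, so none is given for single members.

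**Figure D2:**
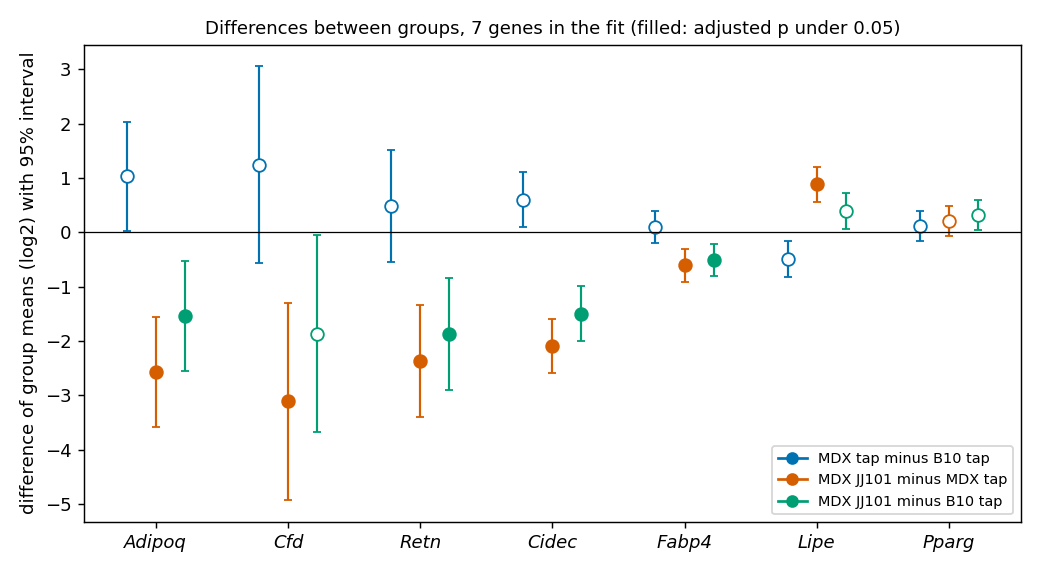
Difference of group means (log2) for the 7 adipocyte genes in the fit, in each of the 3 comparisons, with bars for the 95% interval of limma's moderated fit. Filled points had an adjusted p under 0.05 over all genes: 6 of the orange points (MDX_JJ101 minus MDX_tap) and 4 of the green points (MDX_JJ101 minus B10_tap) are filled, and none of the blue ones.

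Of the 4 secreted members, Adipoq, Cfd and Retn were lower in MDX_JJ101 than in MDX_tap, and Lep was not measurable. Adipoq encodes adiponectin, a hormone made by fat cells that raises insulin sensitivity. Its level was -3.62 and -2.98 on the B10_tap arrays, -2.19 and -2.36 on the MDX_tap arrays, and -4.31 and -5.37 on the MDX_JJ101 arrays. The 3 groups did not overlap, with MDX_tap highest and MDX_JJ101 lowest, but neither MDX_JJ101 array was above background. For any gene, 2 groups of 2 arrays separate in 2 of 6 orderings by chance. The share of all genes whose groups separate was not counted. In signal units Adipoq read 52.4 and 39.9 in MDX_tap against 10.9 and 4.7 in MDX_JJ101. Adipoq was at least 2.06-fold lower in MDX_JJ101 than in MDX_tap (difference -2.57, SE 0.40, limma adjusted p = 0.0140). Such a bound sets the brighter mean against the lowest signal called above background on the dim arrays. It leaves out the spread between arrays, and a probe above that signal can still go uncalled. The limb muscle gene Tnnt3 read -3.23 on MDX_JJ101 replicate 2 and was not above background, where the lowest level called was -3.29. A bound close to 1 therefore gives no fold. Against B10_tap the bound was 1.01-fold, so no fold is given (difference -1.54, limma adjusted p = 0.0382). That call was lost in 10 of 17 alternatives. The difference of 1.03 between MDX_tap and B10_tap did not pass (SE 0.40, adjusted p = 0.233).

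Cfd encodes adipsin, or complement factor D, a protease of the alternative complement pathway that mouse fat cells secrete. It was the one secreted member above background on all 6 arrays. The level was 0.03 and 0.18 on the B10_tap arrays, 1.15 and 1.54 on the MDX_tap arrays, and -0.64 and -2.89 on the MDX_JJ101 arrays. Again no group overlapped another, and the 2 MDX_JJ101 arrays lay 2.25 apart while the other pairs lay within 0.39. Cfd fell by 3.11 in MDX_JJ101 against MDX_tap, an 8.64-fold difference (SE 0.71, 95% interval -4.92 to -1.30, limma adjusted p = 0.0277). That call was lost in 6 of 18 alternatives. The difference was -1.99 without MDX_JJ101 replicate 2 and -4.23 without MDX_JJ101 replicate 1, so its size rested on which array was read. Against B10_tap the difference of -1.87 did not pass (adjusted p = 0.0969); it was -0.75 without MDX_JJ101 replicate 2 and -2.99 without replicate 1, where it did pass (adjusted p = 0.0143), as it did in 5 of 17 alternatives in all. The difference of 1.24 between MDX_tap and B10_tap had an SE of 0.71 and did not pass (adjusted p = 0.368).

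Retn encodes resistin, a cysteine-rich hormone that in mice comes mainly from white fat cells. It had 2 probes. The brighter one read -2.89 and -2.96 on the B10_tap arrays, -2.69 and -2.19 on the MDX_tap arrays, and -4.21 and -5.38 on the MDX_JJ101 arrays. The dimmer one read -3.77 and -3.57, then -3.24 and -3.21, then -4.90 and -5.46. Both probes were above background on the 4 tap water arrays and on neither MDX_JJ101 array, and both had the MDX_JJ101 arrays lowest. By the brighter probe Retn was at least 1.83-fold lower in MDX_JJ101 than in MDX_tap (difference -2.36, SE 0.41, limma adjusted p = 0.0157). The dimmer one had a bound of 1.06-fold, too close to 1 to give a fold. Against B10_tap Retn was, by the brighter probe, at least 1.31-fold lower (difference -1.87, limma adjusted p = 0.0258, lost in 4 of 17 alternatives). The dimmer probe gave no bound there, because its B10_tap mean of -3.67 lay under the level that MDX_JJ101 arrays could register. The difference of 0.49 between the tap water groups did not pass (limma adjusted p = 0.519).

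Lep encodes leptin, the hormone by which fat stores signal to the brain. Read on 10 spots per array, it was above background on no array. Its level ran from -6.24 to -5.90 on the tap water arrays and was -5.46 and -5.39 on the MDX_JJ101 arrays. These levels lie below the lowest level called above background on each array, so no change of Lep was measurable.

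The droplet proteins were close to the limit of detection. Cidec encodes a protein that fuses lipid droplets into the single large droplet of white fat cells. Its brighter probe read -3.78 and -3.94 on the B10_tap arrays, -3.53 and -2.99 on the MDX_tap arrays, and -5.38 and -5.33 on the MDX_JJ101 arrays. It was above background on 1 B10_tap array, on both MDX_tap arrays and on neither MDX_JJ101 array, and the groups did not overlap. Cidec read lower in MDX_JJ101 than in MDX_tap (difference -2.09, SE 0.20, limma adjusted p = 0.0125). Its bound of 1.04-fold was too close to 1 to give a fold. The difference of -1.49 from B10_tap also passed (adjusted p = 0.0116) but gives no fold, because the B10_tap mean lay under the level that MDX_JJ101 arrays could register. A second Cidec probe was above background on no array and stayed out of the fit. It read -5.05 and -5.02 on the B10_tap arrays, -6.35 and -6.13 on the MDX_tap arrays, and -5.57 and -5.45 on the MDX_JJ101 arrays. It thus did not repeat the order of MDX_tap and MDX_JJ101 seen with the brighter probe. Plin1 encodes perilipin 1, the coat protein of the droplet in fat cells. It read -4.44 and -3.46 on the B10_tap arrays, -4.17 and -4.32 on the MDX_tap arrays, and -5.28 and -5.60 on the MDX_JJ101 arrays. Its highest level, in B10_tap replicate 2, was the only one above background.

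The promoters of members that were lower together in MDX_JJ101 are shown from 250 bases before to 50 bases after the transcription start, because they are the windows in which shared letters could be looked for. They come from RefSeq on build GRCm38.p6, each 5′ to 3′ on the strand of the gene: chr16:23146286-23146585 on the plus strand for Adipoq, chr10:79890603-79890902 on the plus strand for Cfd, chr8:3655520-3655819 on the plus strand for Retn, and chr6:113434715-113435014 on the minus strand for the inner of the 2 Cidec windows. Capitals mark matches, on either strand, to the letters TATAAA (a core promoter element read near the start site), CCAAT (an element bound by the factor NF-Y), AGGTCA (the half-site bound by nuclear receptors such as PPAR gamma) and TTGCNNAA (the core bound by C/EBP factors).
Adipoq: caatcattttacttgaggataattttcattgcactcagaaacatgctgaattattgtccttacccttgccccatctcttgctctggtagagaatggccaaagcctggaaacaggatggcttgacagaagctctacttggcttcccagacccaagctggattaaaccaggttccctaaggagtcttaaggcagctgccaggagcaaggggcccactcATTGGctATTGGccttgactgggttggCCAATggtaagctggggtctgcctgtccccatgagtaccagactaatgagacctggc
Cfd: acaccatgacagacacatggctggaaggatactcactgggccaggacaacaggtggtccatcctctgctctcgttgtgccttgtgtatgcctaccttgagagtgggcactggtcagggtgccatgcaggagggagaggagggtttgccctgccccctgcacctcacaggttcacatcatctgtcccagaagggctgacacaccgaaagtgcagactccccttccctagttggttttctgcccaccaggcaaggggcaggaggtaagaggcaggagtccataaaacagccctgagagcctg
Retn: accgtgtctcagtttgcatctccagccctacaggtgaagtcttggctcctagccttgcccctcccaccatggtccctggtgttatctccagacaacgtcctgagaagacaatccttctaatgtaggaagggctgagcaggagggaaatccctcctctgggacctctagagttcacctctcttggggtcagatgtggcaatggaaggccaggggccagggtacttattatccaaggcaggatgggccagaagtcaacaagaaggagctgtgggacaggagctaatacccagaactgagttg
Cidec: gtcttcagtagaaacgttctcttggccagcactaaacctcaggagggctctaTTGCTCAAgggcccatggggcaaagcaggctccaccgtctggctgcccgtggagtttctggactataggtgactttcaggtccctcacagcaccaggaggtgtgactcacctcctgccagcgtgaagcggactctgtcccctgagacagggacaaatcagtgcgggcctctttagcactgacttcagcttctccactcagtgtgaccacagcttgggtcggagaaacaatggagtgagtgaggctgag

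The Adipoq window held 3 matches to CCAAT, at -34 and -27 on the reverse strand and at -7 on the gene's own strand, counted from the start site to the first base of the match. The Cidec window held 1 match to TTGCNNAA, at -198. The outer Cidec window, not printed, held no match to the 4 motifs. No match to these 4 motifs lay in the windows of Cfd and Retn, so the 4 windows had no motif of this search in common. The table held 13 windows for 9 of the members; Fabp4 was the member not matched. AGGTCA occurred in 3 of the 13, from 2 genes, against 16.3% of 32851 promoter windows. TTGCNNAA occurred in 4 of the 13, from 4 genes, against 10.8%. CCAAT occurred in 3 of the 13, from 2 genes, and TATAAA in 1, against 37.4% and 13.6% of all windows. Most windows with AGGTCA, and most with CCAAT, were those of Pparg. The motifs do not overlap in any window printed here, and a match describes letters and not a bound site.

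Fabp4 and Lipe, which handle fatty acids inside the cell, were measured well above background on every array and moved in opposite directions. Fabp4 encodes the fatty acid binding protein of fat cells, and it is also made by capillary endothelium and macrophages. Its level was 7.94 and 8.10 on the B10_tap arrays, 8.16 and 8.07 on the MDX_tap arrays, and 7.59 and 7.42 on the MDX_JJ101 arrays. The tap water groups overlapped and both MDX_JJ101 arrays lay below them. Fabp4 fell by 0.61 in MDX_JJ101 against MDX_tap, a 1.52-fold difference (SE 0.12, adjusted p = 0.0193), and by 0.51 against B10_tap (adjusted p = 0.0293). With arrays centred on their median neither call held, at differences of -0.38 (limma adjusted p = 0.0643) and -0.11 (limma adjusted p = 0.500). Of the alternatives run, 9 of 18 lost the call against MDX_tap and 6 of 17 lost that against B10_tap. Between the tap water groups Fabp4 differed by 0.10 (SE 0.12, adjusted p = 0.660).

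Lipe encodes hormone-sensitive lipase, which cuts diacylglycerol during fat release and is active in fat cells and in muscle. It read -0.88 and -1.05 on the B10_tap arrays, -1.40 and -1.52 on the MDX_tap arrays, and -0.69 and -0.48 on the MDX_JJ101 arrays. The groups did not overlap, and MDX_JJ101 was highest. Lipe was 1.84-fold higher in MDX_JJ101 than in MDX_tap (difference 0.88, SE 0.13, adjusted p = 0.0133). Scaling the arrays on their spike-in probes left a difference of 0.45 that did not pass (limma adjusted p = 0.489). The SE in that fit was 0.40, so the lost call comes with a wider spread as well as with scaling. The difference of 0.39 from B10_tap did not pass (adjusted p = 0.0700) and became -0.069 when scaled on spike-ins and 0.79 when centred on the median, where it passed (adjusted p = 0.0187). MDX_tap differed from B10_tap by -0.49 (SE 0.13, adjusted p = 0.148).

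Pparg, the nuclear receptor gene that drives fat cell formation, read 2.25 and 2.37 on the B10_tap arrays, 2.50 and 2.34 on the MDX_tap arrays, and 2.62 and 2.64 on the MDX_JJ101 arrays, as means over 10 spots. All arrays lay within this narrow range, with MDX_JJ101 at its top. The difference between MDX_JJ101 and MDX_tap was 0.21 (SE 0.11, 95% interval -0.07 to 0.49, adjusted p = 0.182), and with spike-in scaling it was -0.22. Against B10_tap it was 0.32 (adjusted p = 0.0755), -0.14 when scaled on spike-ins and 0.72 when centred on the median, where it passed (adjusted p = 0.0128). Between the tap water groups it was 0.11 (95% interval -0.17 to 0.39, adjusted p = 0.588). Ucp1 encodes the uncoupling protein by which brown fat makes heat. It was above background on no array, at -6.35 to -6.01 in the tap water groups and -5.49 and -5.45 in MDX_JJ101.

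The dim members depended on how background was handled. Normexp correction adds 50 to each signal, and in that setting Adipoq differed by -0.60, Retn by -0.64 and Cidec by -0.39 between MDX_JJ101 and MDX_tap, all past the threshold (adjusted p = 0.00590, 0.0110 and 0.0188). Cfd, brighter than these, differed by -2.17 (adjusted p = 0.00369). In MDX_JJ101 against B10_tap the same setting left Adipoq at -0.21, Retn at -0.37 and Cidec at -0.24, none past the threshold (adjusted p = 0.158, 0.0757 and 0.101). In the table the authors deposited, Adipoq differed by -0.88 and Cfd by -2.34 between MDX_JJ101 and MDX_tap (adjusted p = 0.00544 and 0.00538, limma on those values).

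**Figure D3:**
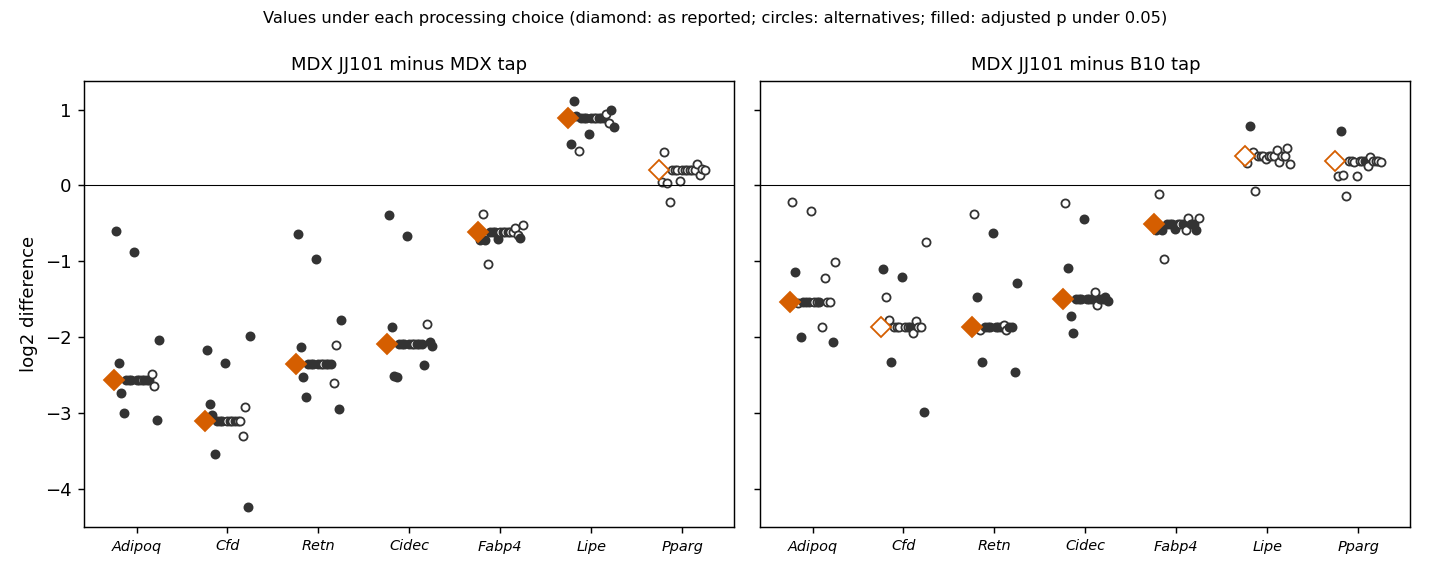
Log2 difference of each adipocyte gene in the fit under each processing choice, for MDX_JJ101 minus MDX_tap (left) and MDX_JJ101 minus B10_tap (right). The diamond is the value as reported and circles are the alternatives, filled where the adjusted p was under 0.05; Adipoq, Cfd, Retn, Cidec and Fabp4 stay below 0 in both panels, while Pparg in both panels and Lipe in the right one have a value on the other side of 0.

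Other genes of fat metabolism were read from lists, and many are at work in muscle too. Of all genes, 19.9% passed as higher and 16.1% as lower in MDX_JJ101 against MDX_tap. Against B10_tap these shares were 16.2% and 17.4%. A list count near these shares says nothing particular about the list. Between MDX_tap and B10_tap no gene passed in any of the 13 lists. Of 12 adipogenic regulators, 5 rose and 2 fell in MDX_JJ101 against MDX_tap (median 0.19, against 0.00082 over all genes). Rxrg, a partner receptor of PPARs, rose by 0.77 (SE 0.10, adjusted p = 0.0128), Ppard by 0.90 and Ppara, which drives fatty acid oxidation, by 0.77. Klf15, a factor of lipid and amino acid metabolism, rose by 1.03. The 2 that fell were Cebpa (-0.74, adjusted p = 0.0439), the partner of PPAR gamma in making fat cells, and Ebf2 (-0.87, adjusted p = 0.0219), an early factor of brown and beige fat, both named after their values were seen. Cebpa read -0.03 and -0.36 in MDX_tap and -0.68 and -1.18 in MDX_JJ101, above -1.07 and -1.11 in B10_tap on one MDX_JJ101 array and below on the other. Against B10_tap 6 regulators rose and 0 fell. They were led by Cebpb (1.59, limma adjusted p = 0.0105) and Cebpd (0.94, limma adjusted p = 0.0136), early factors of fat cell formation. Cebpd did not rise against MDX_tap, at 5.23 and 4.96 in MDX_tap and 5.01 and 4.83 in MDX_JJ101.

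Genes of the lipid droplet coat mostly went the other way from Cidec. Of 12, 8 rose and 2 fell in MDX_JJ101 against MDX_tap (median 0.68). Plin5, the perilipin of heart and oxidative muscle, read 6.04 and 6.20 on the B10_tap arrays, 5.90 and 6.20 on the MDX_tap arrays, and 6.91 and 7.21 on the MDX_JJ101 arrays. It rose by 1.02 against MDX_tap (SE 0.17, adjusted p = 0.0151) and by 0.94 against B10_tap (adjusted p = 0.0177). Cideb, a relative of Cidec known from liver, rose by 0.74 (adjusted p = 0.0137). Cav1 and Cavin2, which form the membrane pits called caveolae in fat cells and endothelium, fell by 0.64 and 0.69 (adjusted p = 0.0148 and 0.0139). Against B10_tap 6 of the 12 rose and the same 2 fell.

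Of 15 genes of triglyceride synthesis, 5 rose and 4 fell in MDX_JJ101 against MDX_tap (median 0.37). Lpin1, a phosphatidate phosphatase, rose by 1.51 (SE 0.12, adjusted p = 0.0124), Dgat2, which adds the last fatty acid, by 1.03, and Gpd1, a supplier of glycerol phosphate, by 1.07. Scd2, a fatty acid desaturase, fell by 0.78 (adjusted p = 0.0131). Among 10 lipolysis genes, Pnpla2, the first lipase of the pathway, rose by 1.16 (SE 0.20, adjusted p = 0.0158) and no other passed (median 0.11). Pnpla2 thus changed in the same direction as Lipe. Against B10_tap, 5 synthesis genes rose and 2 fell, and 2 lipolysis genes rose and 1 fell. Angptl4, an inhibitor of lipoprotein lipase, was 2.71 higher than in B10_tap (SE 0.43, adjusted p = 0.0147) and G0s2, an inhibitor of Pnpla2, fell by 0.94 (adjusted p = 0.0196).

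Of 10 genes of fat uptake and glucose transport, 3 rose and 1 fell in MDX_JJ101 against MDX_tap (median 0.22). Slc2a4, the insulin-regulated glucose transporter, rose by 0.79 (adjusted p = 0.0149), the fatty acid carrier Slc27a1 by 0.98 (adjusted p = 0.0227), and Acsl1, which activates fatty acids, by 0.75 (adjusted p = 0.0245). Fabp5, a relative of Fabp4, fell by 0.76 (adjusted p = 0.0217). Slc2a4 was the 1 gene of the list to pass against B10_tap, at 0.62 (adjusted p = 0.0234). Of 13 other adipokines and receptors, 5 rose and 1 fell against MDX_tap (median 0.37). The adiponectin receptor Adipor1 rose by 0.46 (adjusted p = 0.0207) and Cdh13, the cadherin that binds adiponectin, by 0.69 (adjusted p = 0.0131), where Adipoq itself was lower. Retnla, a relative of resistin made by alternatively activated macrophages, fell by 1.51 (SE 0.25, adjusted p = 0.0149). Against B10_tap 5 of this list rose and 3 fell, among them Retnla (-1.48).

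Of 13 genes of brown and beige fat, 4 rose and 2 fell in MDX_JJ101 against MDX_tap (median 0.31). The potassium channel gene Kcnk3 rose by 1.38 (SE 0.13, adjusted p = 0.0125) and the droplet protein gene Cidea by 0.78 (adjusted p = 0.0257). Dio2, the enzyme that activates thyroid hormone, fell by 1.48 (limma adjusted p = 0.0208). Otop1, a proton channel gene, read lower (limma adjusted p = 0.0294), with a bound of 1.07-fold, too close to 1 to give a fold. It entered the fit through the tap water groups alone, so its low level in MDX_JJ101 is in part what the filter selects. Against B10_tap 4 rose and 1 fell. The medians of these 7 lists depended on scaling. Spike-in scaling shifted the median of all genes by -0.43 in MDX_JJ101 against MDX_tap. The median was then below 0 in each list but the droplet coat (0.25). In that fit 1 gene of triglyceride synthesis rose and none of the other 6 lists did. All members in the spike-in fit had the same SE of 0.40, so the lost rises come with a changed spread as well as with scaling.

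**Figure D4:**
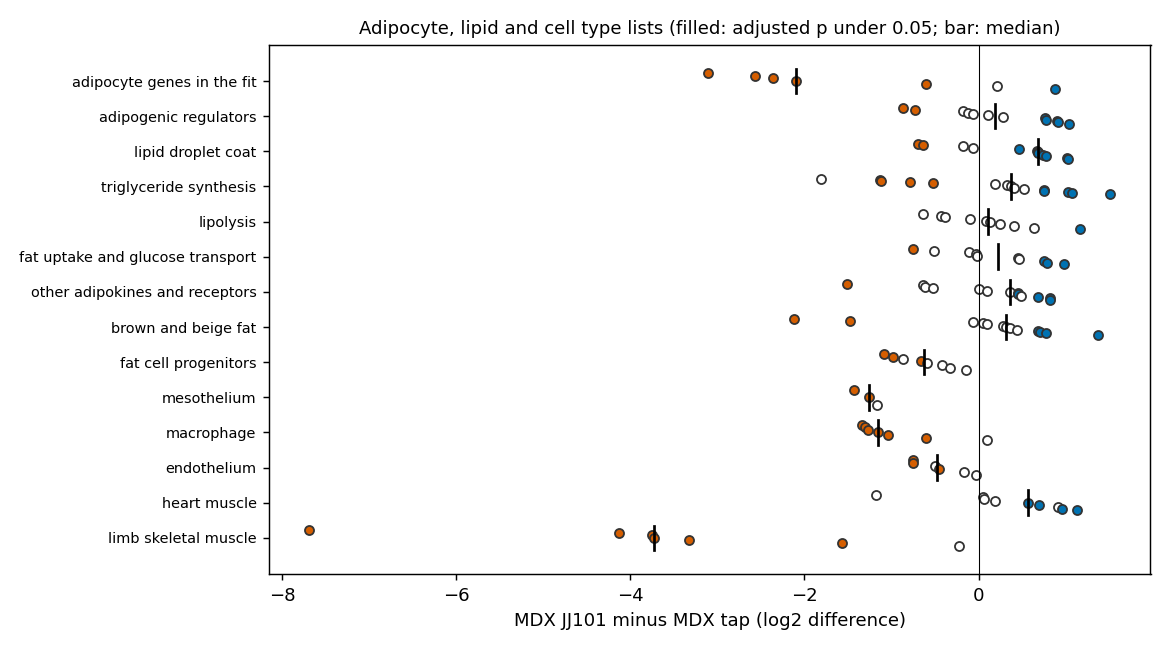
Log2 difference between MDX_JJ101 and MDX_tap for the adipocyte genes in the fit and each gene of 13 lists, 1 point per gene, with a bar at the list's median; filled points had an adjusted p under 0.05. The adipocyte genes reach from -3.11 for Cfd to 0.88 for Lipe, and the droplet coat list has its median at 0.68.

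Markers of other cells were read in the same fit, where 19.9% of all genes rose and 16.1% fell in MDX_JJ101 against MDX_tap. Of 8 markers of fat cell progenitors in the fit, 3 fell in MDX_JJ101 against MDX_tap and 0 rose: Dpp4 by 1.09 (adjusted p = 0.0128), Cd24a by 0.98 (adjusted p = 0.0211) and Pdgfra by 0.66 (adjusted p = 0.0309). Their summed signal, with the array's 75th percentile as 1, was 136 and 140 on the B10_tap arrays, 202 and 195 on the MDX_tap arrays, and 173 and 129 on the MDX_JJ101 arrays; Dlk1 was outside the fit. Of 7 macrophage markers 6 fell, with sums of 50.1 to 53.8 in B10_tap, 72.3 to 93.9 in MDX_tap and 41.4 to 50.9 in MDX_JJ101; Mrc1, the mannose receptor gene, fell by 1.27 (adjusted p = 0.0155). Of 6 endothelial markers 3 fell, with sums of 175 and 177, then 162 and 127, then 108 and 94.2; Kdr, the receptor for VEGF, fell by 0.75 (adjusted p = 0.0193). Against B10_tap all 6 endothelial markers fell, as did Fabp4; between MDX_tap and B10_tap their median was -0.26 and none passed. The sums mostly followed their brightest genes: Cd34, Ly6a and Pi16 for progenitors, Csf1r for macrophages and Egfl7 for endothelium. Cd34, Ly6a and Pi16 did not pass against MDX_tap. Of 3 mesothelial markers 2 fell: Wt1 by 1.26 and Gpm6a by 1.43 (limma adjusted p = 0.0129 and 0.0130). Their sums ran from 1.69 to 4.93, and the defining markers Upk3b, Upk1b, Lrrn4, Krt19 and Bnc1 did not enter the fit.

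Limb muscle markers, faint beside heart markers on every array, were nearly lost in MDX_JJ101. All 7 in the fit entered it through the tap water groups alone, so a low level in MDX_JJ101 is in part what the filter selects. Of these 7, 6 fell in MDX_JJ101 against MDX_tap. Their summed signal was 10.1 and 7.78 on the B10_tap arrays, 3.15 and 18.2 on the MDX_tap arrays, and 0.386 and 0.295 on the MDX_JJ101 arrays. Myh4, the fastest myosin of limb muscle, read 2.62 and 2.28, then 0.91 and 3.53, then -5.52 and -5.42, and was at least 46.3-fold lower in MDX_JJ101 than in MDX_tap (adjusted p = 0.0128). Within MDX_tap, replicate 1 minus replicate 2 was -0.54 for Cidec, -0.50 for the brighter Retn probe, -0.39 for Cfd and 0.17 for Adipoq, where the SD of that difference over all genes was 0.37. Of 9 heart markers 4 rose and 0 fell, with sums of 4508 to 5563 over the 6 arrays. The part of these cell types, of the slide row and of the higher detection limit on the MDX_JJ101 arrays in the lower fat cell genes was not tested.

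**Figure D5:**
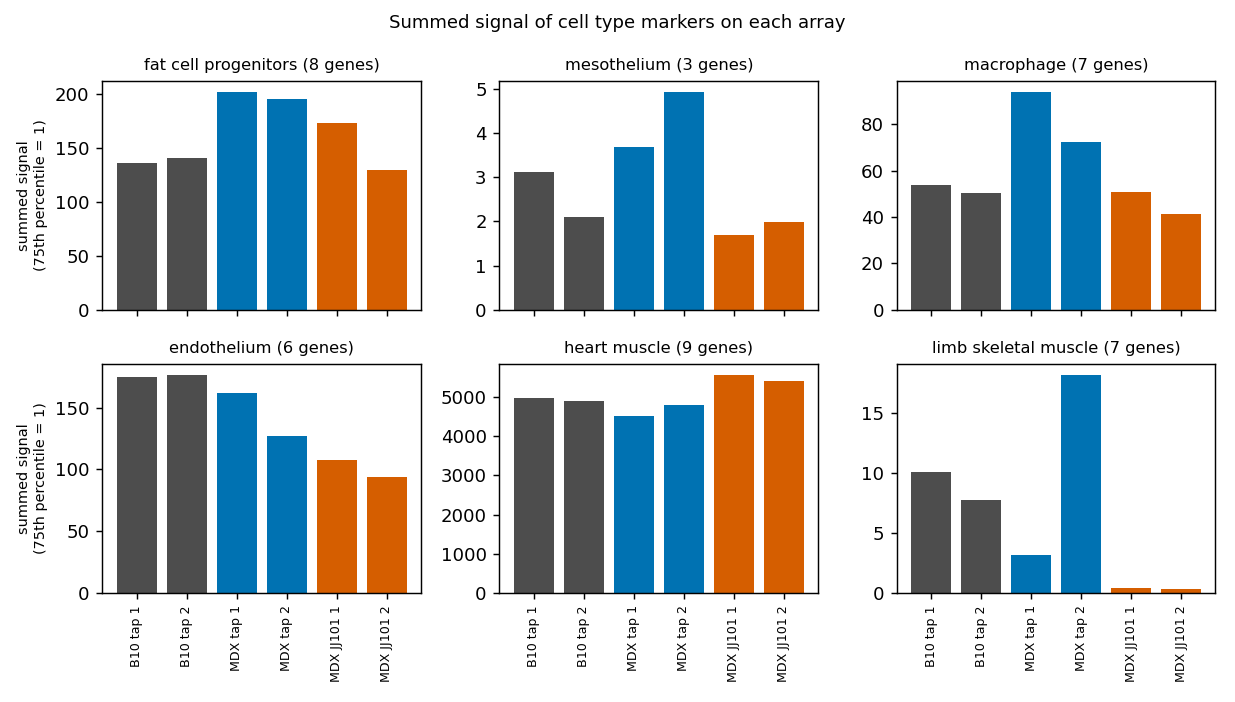
Summed signal of the markers of 6 cell types on each array, as bars from 0, with the array's 75th percentile as 1. Limb muscle markers are at 0.386 and 0.295 on the MDX_JJ101 arrays, while the heart muscle sum is between 4508 and 5563 on all 6.

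The mean centred level of Adipoq, Cfd and Cidec, which entered the fit among the 4 genes chosen as a reference, was 0.12 and 0.33 on the B10_tap arrays, 1.05 and 1.31 on the MDX_tap arrays, and -0.87 and -1.95 on the MDX_JJ101 arrays. Among 2199 genes with an SD of at least 0.5 over the arrays, the 8 named genes most like it by Pearson correlation over the 6 arrays were Myef2 (0.997), Gulp1 (0.996), Pik3c2a (0.996), Lum (0.996), Tmem273 (0.994), Rnu12 (0.992), Smc2 (0.992) and Sh3bgrl (0.992). Retn, which was not part of the reference, had 0.980. Adipoq, Cidec and Retn were not above background on the MDX_JJ101 arrays. The reference level there thus rests on Cfd and on signals that were not called. These correlations describe 6 points that form 3 pairs on 1 slide, and they carry no p. Lum and Gulp1 were picked for following this profile on these same arrays, so a lower level in MDX_JJ101 was built into the choice. Their differences are therefore given without a p. Lum encodes lumican, a proteoglycan of collagen-rich matrix. Its level fell by 1.62 in MDX_JJ101 against MDX_tap (SE 0.29) and was lower than in B10_tap as well. Gulp1, an adaptor for the uptake of dying cells, fell by 1.32 against MDX_tap and by 0.89 against B10_tap.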

How the data were processed

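Total RNA, labelled with the dye Cy3, was hybridised to 6 one-colour Agilent arrays. Per the labels, the authors made the deposited intensity values with Agilent Feature Extraction 11.5.1.1; the processed signal is background-subtracted. Other deposited columns were 0 or 1 flags (above background, outlier, saturated), per the file headers. The authors' deposited series table is on a log2 scale, ranks spots as the raw median signal does, and served as an alternative.

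Here each array's log2 processed signal was set relative to its 75th percentile over 59305 non-control spots; outlier spots were left out, spots of a probe averaged, and the gene's probe with the highest mean used. Probes were named through RefSeq accessions (27656 of 55681 matched); the array's build is mm9, the promoter table's GRCm38.p6. Probes for which some group had both arrays above background were kept (27260). One limma fit (version 3.58.1, R 4.3.3) held all 3 groups (3 residual and 2.21 prior degrees of freedom, two-sided, Benjamini-Hochberg). A bound sets the brighter group's mean against the lowest signal above background on the dim arrays, or the dim probe's own if higher. It leaves out the spread between arrays. Steps were tested on simulated data.

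The array files hold no mean signal, so the normexp alternative used the median signal. Alternatives also covered scaling, the filter, probe choice, outliers, groups fitted, blocks, the variance model and left-out arrays. The number of arrays limits precision. Members, the lists (adipogenic regulators, droplet coat, triglyceride synthesis, lipolysis, fat uptake and glucose transport, adipokines and receptors, brown and beige fat, and 6 cell types) and tests were chosen with earlier results of these data known. By rule the text names every member, up to 4 genes with the smallest p of each list, and the 8 genes most like the fat cell profile among those with an SD of at least 0.5. Of the genes so named, 1 is left out of the text and not reported here.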

Additional observations from a re-analysis of the deposited data

How the results depend on the processing

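Adipoq, Cfd, Retn, Cidec and Fabp4 were lower in MDX_JJ101 than in either tap water group under every alternative run. The values that turned sign came with spike-in scaling: Pparg (-0.22 against MDX_tap and -0.14 against B10_tap) and Lipe (-0.069 against B10_tap). The count of members past the threshold in MDX_JJ101 against MDX_tap, 6 as reported, was 0 with slide column as a block and 0 to 6 with 1 array left out. Against B10_tap, 4 as reported, it was 2 with normexp and quantile normalization, 2 with quantile normalization alone, 2 with the replicate block, 7 without the filter and 0 to 5 with 1 array left out. The 7 include Lep and Ucp1, which were above background on no array. Between the tap water groups it was 0 in each alternative.

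Over all genes, the 5 calls of MDX_tap against B10_tap became 407 with normexp, 285 with median centring, 413 with spike-in scaling, 0 without the filter (limma, 5113 at an unadjusted p under 0.05), 15 with every probe, 348 with the authors' table, 125 with 2 groups fitted, 316 with an intensity trend and 0 to 125 with 1 array left out. The 7530 calls of MDX_JJ101 against MDX_tap became 3713 with spike-in scaling (79 higher, 3634 lower, against 4160 and 3370), 13640 without the filter, 3249 with 2 groups fitted, 0 with slide column as a block (limma, 8858 at an unadjusted p under 0.05) and 48 to 7701 with 1 array left out. The 7009 calls of MDX_JJ101 against B10_tap became 4394 with spike-in scaling (105 higher, 4289 lower, against 3376 and 3633), 14092 without the filter and 76 to 6908 with 1 array left out; median centring gave 8457 higher and 1645 lower, and 5692 and 1898 against MDX_tap. With 1 array of a group left, the lone array is assumed to vary like the other groups. The spike-in fit gave every member the same SE of 0.40, so its counts differ in the spread used as well as in scaling.

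Replicate numbers did not pair the arrays: their deviations correlated at -0.031, 0.16 and -0.064 between groups. With the replicate block, 4, 6518 and 5864 genes passed in the 3 comparisons. Signal over background limited Adipoq, Retn and Cidec to bounds in MDX_JJ101 and left Lep, Ucp1 and Plin1 unmeasured.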

Other observations

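Among the lists, 5 genes close to the threshold between MDX_tap and B10_tap are given here, chosen after their values were seen. Cebpd, a factor of early fat cell formation, differed by 1.12 (adjusted p = 0.0682), and Trem2, a receptor of lipid-handling macrophages, by 1.71 (adjusted p = 0.0813). The mesothelial and progenitor factor Wt1 differed by 1.17 (adjusted p = 0.0813) and Angptl4, an inhibitor of lipoprotein lipase, by 2.80 (adjusted p = 0.0871). Dio2, which activates thyroid hormone in brown fat, differed by 1.71 (adjusted p = 0.0993). Angptl4 read 0.21 and 0.45 on the B10_tap arrays, 3.06 and 3.21 on the MDX_tap arrays, and 2.38 and 3.70 on the MDX_JJ101 arrays. Both MDX groups lay above B10_tap on every array, whichever water they were given.

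The MDX_JJ101 arrays differed from each other by 2.25 for Cfd, 1.17 for the brighter Retn probe and 1.06 for Adipoq, with replicate 1 higher, where the SD of the replicate difference over all genes was 0.48. Fabp4 differed by 0.16 and Pparg by -0.016 between the same arrays. Adipoq and Retn were not above background on either of them, so Cfd is the one of these 3 measured on both.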
